A study of Drosophila melanogaster with 4 samples.

Results

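The regions described here are the clusters of histone H3 enrichment in the last 2 Mb of sequence before the centromere on chromosome arms 2L, 3L, X and 3R of *Drosophila melanogaster* embryos. A cluster was counted when its midpoint lay in 2L 21011545-23011544, 3L 22543558-24543557, X 20422828-22422827 or 3R 1-2000000 on FlyBase release 5. The end of the assembled arm nearest the centromere has the highest coordinate on 2L, 3L and X and the lowest on 3R. By this rule 615 of the 18424 clusters of the series-wide list lay near a centromere (3.34%), with 104 of 3717 in ChIP replicate 1 (2.80%) and 74 of 2198 in ChIP replicate 2 (3.37%). The rule used position only, so density, length and score were free to vary.

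The clusters came from chromatin immunoprecipitation and sequencing (ChIP-seq) of wild-type embryos of the Oregon-R strain (Oregon-R-modENCODE), collected at 14 to 16 h of development from population cages and fixed with 1.8% formaldehyde. The 4 libraries were 2 ChIP replicates with an antibody against H3 (H3 antibody3) and 2 inputs, and an input entered only as the background of the same-numbered ChIP list. Whole embryos mix many cell types, so a cluster is an average over them. Nothing in the labels says whether the replicates were separate embryo collections, and the spread between them may be technical. Since clusters of 1 list are no replicates of a condition, p-values describe these lists only.

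Histone H3 is a core protein of the nucleosome, the unit that wraps DNA into chromatin, and it is present along the whole genome whether or not its tails are modified. The sequence around each fly centromere is packed into heterochromatin, which is rich in repeats and transposons, holds few genes and carries methylated H3 bound by the heterochromatin protein HP1. The assembled arms run from gene-rich euchromatin into the edge of this heterochromatin. How much of each 100-kb step could receive uniquely placed reads was not measured, and a cluster count is a count of called regions, not an amount of H3.

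All 4 arm ends held fewer series-wide clusters per Mb than the rest of their own arm, and they differed widely among themselves. The last 2 Mb of 2L held 100 clusters, or 50.0 per Mb, against 150.2 per Mb on the rest of the arm, a ratio of 0.333 (95% interval 0.270 to 0.406). On 3L 109 clusters gave 54.5 per Mb against 152.1 per Mb, a ratio of 0.358 (0.293 to 0.434). X held 146 clusters, or 73.0 per Mb against 127.1, a ratio of 0.575 (0.483 to 0.679). The end of 3R was the densest of the 4, with 260 clusters or 130.0 per Mb against 173.4, a ratio of 0.750 (0.659 to 0.850). In exact two-sided binomial tests the adjusted p was 3.66e-37 for 2L, 9.16e-35 for 3L, 6.20e-12 for X and 5.08e-06 for 3R.

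The replicates gave the same direction on all 4 arms, with fewer clusters behind each value. The end of 2L held 11 clusters in replicate 1 and 5 in replicate 2, and the mean ratio of its density to that of the rest of the arm was 0.166 ± 0.0215 (SD, n = 2). On 3L there were 23 and 15 clusters, with a mean ratio of 0.399 ± 0.0468. X held 20 and 19, with 0.528 ± 0.141, and 3R held 50 and 35, with 0.759 ± 0.0783. The exact binomial test passed for all 4 arms in replicate 1 (adjusted p = 3.22e-13 for 2L, 9.42e-08 for 3L, 5.60e-05 for X and 0.0153 for 3R). In replicate 2 the exact binomial test passed for 2L (adjusted p = 1.83e-08) and 3L (adjusted p = 6.82e-04), and it did not pass for X (adjusted p = 0.0565) or 3R (adjusted p = 0.264).

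Set against the adjacent 2 Mb of the same arm, 2 to 4 Mb from its end, 3R no longer stood lower. Its last 2 Mb held 260 series-wide clusters and the next 2 Mb 256, a ratio of 1.02 (0.851 to 1.21; exact binomial test, adjusted p = 0.895), so a difference of the size seen on the other arms lies outside the interval. On 2L the last 2 Mb held 100 clusters against 342 in the next 2 Mb, a ratio of 0.292 (0.232 to 0.366). The pair was 109 against 356 on 3L, a ratio of 0.306 (0.245 to 0.380), and 146 against 259 on X, a ratio of 0.564 (0.457 to 0.693). These 3 passed the exact binomial test (adjusted p = 5.88e-31, 7.37e-31 and 5.13e-08). The replicate means were 0.134 ± 0.0424 on 2L, 0.323 ± 0.00470 on 3L, 0.477 ± 0.0723 on X and 1.19 ± 0.133 on 3R (SD, n = 2 each). The difference between arms was tested itself. In Fisher's exact test the series-wide ratio of 3R exceeded that of X 1.80-fold (adjusted p = 4.15e-05), that of 3L 3.32-fold (adjusted p = 1.58e-17) and that of 2L 3.47-fold (adjusted p = 9.18e-18). In the same Fisher's exact tests X exceeded 3L 1.84-fold (adjusted p = 1.21e-04) and 2L 1.93-fold (adjusted p = 5.38e-05), whereas 3L over 2L stood at 1.05 (adjusted p = 0.813). X over 3L did not pass in replicate 1 (1.33-fold; Fisher's exact test, adjusted p = 0.500) or replicate 2 (1.62-fold, adjusted p = 0.346), while X over 2L passed in both (2.59-fold and 5.07-fold, adjusted p = 0.0387 and 0.00373). 3R over 3L and over 2L passed in both replicates. In replicate 1 Fisher's exact test passed for 3R over X (3.01-fold, adjusted p = 0.00238), and in replicate 2 it did not (2.07-fold, adjusted p = 0.0861).

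**Figure D1:**
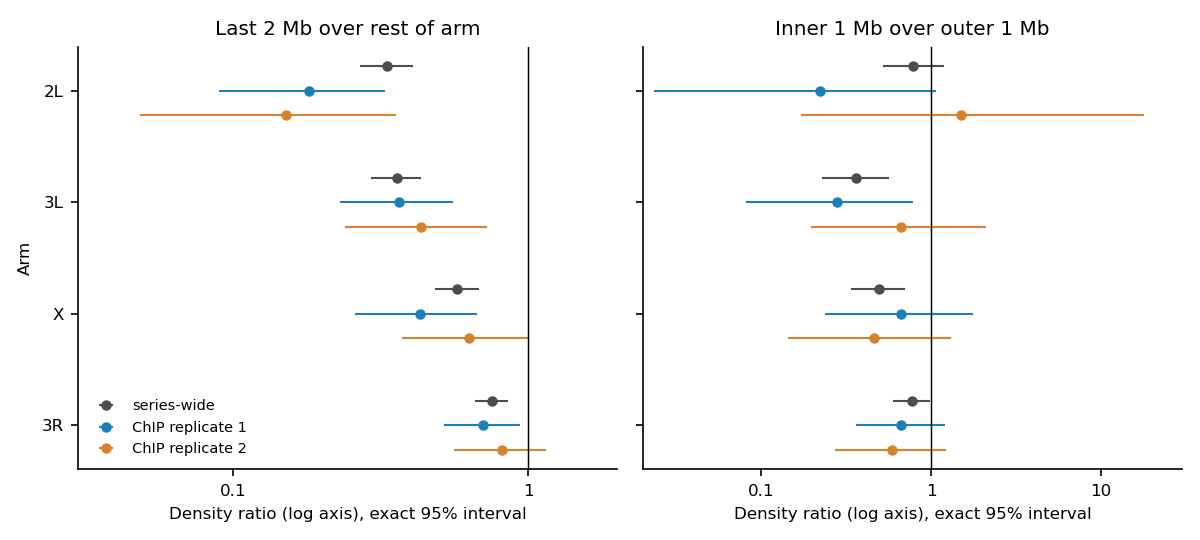
Density of clusters in the last 2 Mb relative to the rest of the arm (left) and in the last 1 Mb relative to the 1 Mb before it (right), by arm, on a log axis without unit. Points are the series-wide list and the 2 replicates, bars are exact 95% intervals, and the line at 1 marks equal density. On the left the series-wide points run from 0.333 on 2L to 0.750 on 3R, and all lie below 1.

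Counts at the ends also differed between arms over equal lengths of sequence. In the series-wide list the end of 3R held 1.78 times as many clusters as that of X (exact binomial test, adjusted p = 9.96e-08), 2.39 times as many as 3L (adjusted p = 2.11e-14) and 2.60 times as many as 2L (adjusted p = 2.75e-16). X held 1.34 times as many as 3L (exact binomial test, adjusted p = 0.0392) and 1.46 times as many as 2L (adjusted p = 0.00906). 3L over 2L gave 1.09 (0.823 to 1.44; exact binomial test, adjusted p = 0.643). In the replicates 3R over 2L was 4.55 and 7.00 (exact binomial test, adjusted p = 2.06e-06 and 4.98e-06), and 3R over 3L was 2.17 and 2.33 (adjusted p = 0.00545 and 0.0119). 3R over X was 2.50 in replicate 1 (exact binomial test, adjusted p = 0.00132) and 1.84 in replicate 2 (adjusted p = 0.0573). X over 3L was 0.870 in replicate 1, the opposite direction, and 1.27 in replicate 2 (exact binomial test, adjusted p = 0.761 and 0.643). X over 2L was 1.82 and 3.80 (exact binomial test, adjusted p = 0.180 and 0.0119), and 3L over 2L was 2.09 and 3.00 (adjusted p = 0.0741 and 0.0573).

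In the series-wide list covered sequence followed the same order of arms. Series-wide clusters covered 6.82% of the last 2 Mb of 2L against 24.5% of the rest of the arm, 9.45% against 25.3% on 3L, 10.5% against 20.6% on X and 20.8% against 28.8% on 3R. In replicate 1 the covered share of the ends was between 0.881% on 2L and 3.92% on 3R, and in replicate 2 between 0.353% and 2.66% on the same arms. The end of 3L stood above that of X in replicate 1 (1.96% and 1.50%) and below it in replicate 2 (1.16% and 1.40%). No test was made on covered sequence.

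Read in 100-kb steps from the centromere outward, the series-wide counts of 2L were 4, 3, 6, 1, 5, 2, 3, 4, 5 and 11 in the first 1 Mb and 7, 10, 7, 1, 3, 1, 3, 6, 8 and 10 in the second. No step of 2L reached the mean of the rest of the arm, 15.0 clusters per step. The low steps were not stacked against the end, since steps 14 to 17, at 1.3 to 1.7 Mb, held 1, 3, 1 and 3 clusters, fewer than the 11 of step 10. By 500-kb blocks the ratio to the rest of the arm was 0.253, 0.333, 0.373 and 0.373 within the last 2 Mb, and 1.05 in the block just beyond it. The density of 2L thus stood low along the whole 2 Mb and was at the arm's mean in the next 500 kb.

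On 3L the counts outward were 3, 4, 6, 2, 2, 4, 3, 4, 1 and 0, and then 8, 8, 3, 2, 3, 1, 12, 10, 18 and 15, against a mean of 15.2 per step on the rest of the arm. Steps 1 to 16 all stayed at 8 clusters or fewer, and steps 17 to 20 all held 10 or more. Its step 10, 3L 23543558-23643557, was the single step of the 80 with 0 series-wide clusters. The 500-kb blocks stood at 0.223, 0.158, 0.315 and 0.736 of the rest, and the block just beyond at 1.47. The lowest block of 3L was therefore not the one nearest the centromere.

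X gave 3, 3, 8, 5, 4, 3, 3, 3, 6 and 10 clusters in the first 10 steps and 11, 11, 7, 13, 6, 5, 7, 7, 19 and 12 in the next 10, against a mean of 12.7. Its blocks stood at 0.362, 0.394, 0.756 and 0.787 of the rest of the arm and at 0.992 just beyond. On 3R the counts were 7, 10, 7, 7, 7, 10, 16, 14, 17 and 18, then 15, 13, 18, 14, 16, 17, 15, 16, 10 and 13, against a mean of 17.3. The blocks of 3R stood at 0.438, 0.865, 0.877 and 0.819, and the 4 blocks from 2 to 4 Mb at 0.669, 0.750, 0.715 and 0.819. On 3R the first 500 kb was thus the lowest block, and from there to 4 Mb the density stayed between 0.669 and 0.877 of the arm's mean.

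**Figure D2:**
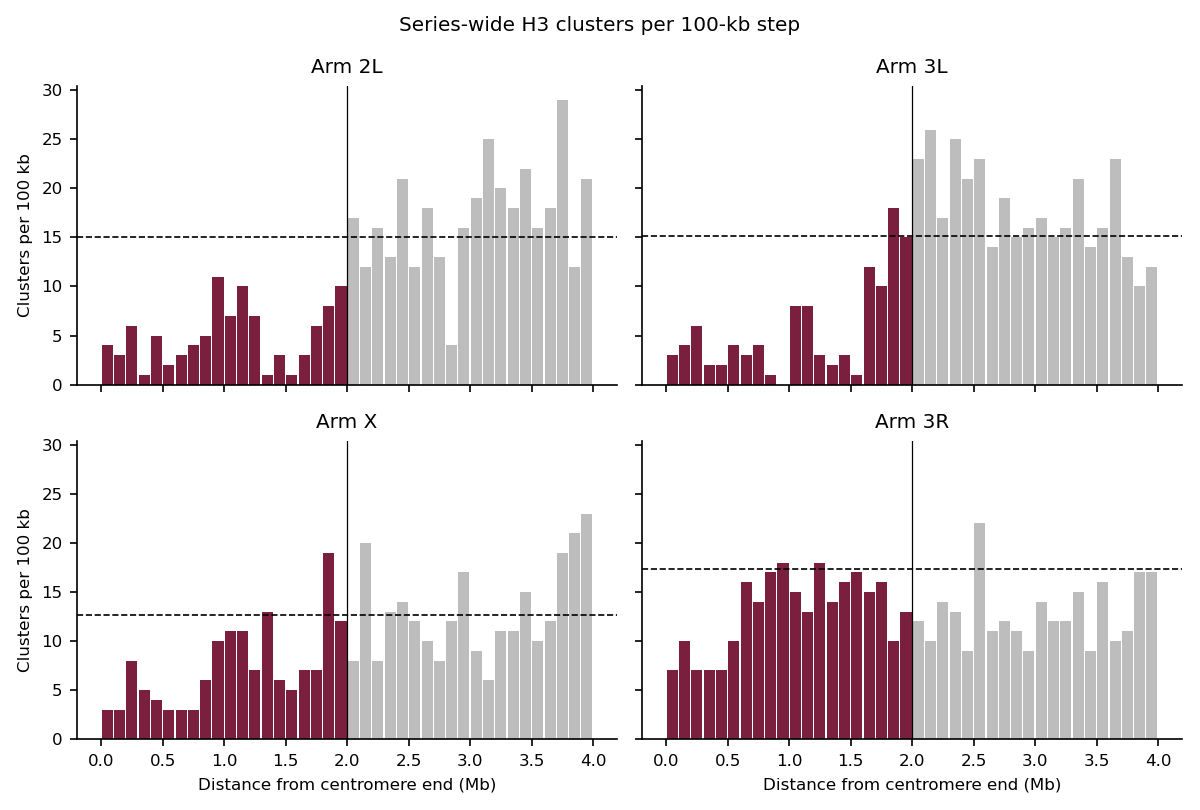
Series-wide clusters in each 100-kb step of the 4 arms, against distance from the centromere end in Mb. Dark bars are the last 2 Mb, grey bars the next 2 Mb, and the dashed line is the mean per step on the rest of the arm. On 2L all 20 dark bars lie below that line, and on 3L bars of 10 or more begin at step 17. On 3R bars of 10 or fewer fill steps 1 to 6 and recur at step 19. Among the grey bars of 3R they recur at steps 22, 25, 30, 35 and 37.

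A step was called low when it held fewer clusters than 50% of its arm's mean over the rest of the arm. In the series-wide list 44 of the 80 near steps were low (55.0%), against 5.46% of the 898 steps of the rest of the 4 arms. By arm these were 16 of 20 steps on 2L, 14 on 3L, 10 on X and 4 on 3R. An empty step occurred in 1 of the 80, against 0% elsewhere, where the emptiest step held 4 clusters on 2L, 3L and 3R and 1 on X.

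In replicate 1 51 of the 80 near steps were low (63.8%), against 26.1% of the steps elsewhere, and 30 were empty (37.5%), against 8.02%. In replicate 2 43 were low (53.8%), against 28.0%, and 39 were empty (48.8%), against 21.9%. With a mean of 1.51 to 3.56 clusters per step on the rest of the arms, a low step in a replicate is a matter of 1 or 0 clusters. The replicates can therefore place the sparse stretches only roughly.

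By step, replicate 1 held on 2L 1 cluster in step 1, none in steps 2 to 9, and then 1, 1, 2, 1, 0, 1, 0, 0, 3, 1 and 0. Replicate 2 held on 2L only 5 clusters, namely 1 in step 5, 2 in step 9, 1 in step 11 and 1 in step 20. On 3L replicate 1 held 1, 2, 0 and 2 clusters in steps 1 to 4, none in steps 5 to 11, and 2, 0, 1, 1, 0, 2, 2, 3 and 7 from step 12. Replicate 2 held 2, 1, 0, 1, 1 and 1 in the first 6 steps of 3L, none in steps 7 to 16, and 2, 1, 2 and 4 in steps 17 to 20. Both replicates of 3L thus had a filled end, an empty middle and a filled outer edge, with 7 and 10 empty steps in a row.

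On X replicate 1 held 0, 0, 0, 1, 4, 1, 0, 0, 2 and 0 clusters, then 2, 1, 2, 1, 1, 0, 2, 1, 1 and 1. Replicate 2 held 1, 0, 1, 1, 0, 0, 0, 0, 0 and 3, then 2, 2, 0, 2, 0, 0, 1, 1, 2 and 3. On 3R replicate 1 held 2, 2, 1, 1, 0, 2, 4, 3, 2 and 3, then 1, 5, 4, 3, 3, 5, 3, 1, 3 and 2. Replicate 2 held 1, 2, 0, 2, 0, 0, 2, 2, 2 and 2, then 3, 3, 2, 4, 2, 1, 3, 2, 1 and 1. On 3R the replicates had 1 and 3 empty steps, all within the first 6.

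Of the 80 steps, 33 were filled in both replicates, 17 in replicate 1 alone, 8 in replicate 2 alone and 22 in neither. Over the 80 steps the counts of the replicates had a Spearman rho of 0.483. Within arms it was -0.185 on 2L, 0.667 on 3L, 0.0123 on X and 0.324 on 3R (20 steps each). Steps share an antibody, strain and genome sequence, and neighbouring steps are not independent, so these values are descriptions.

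**Figure D3:**
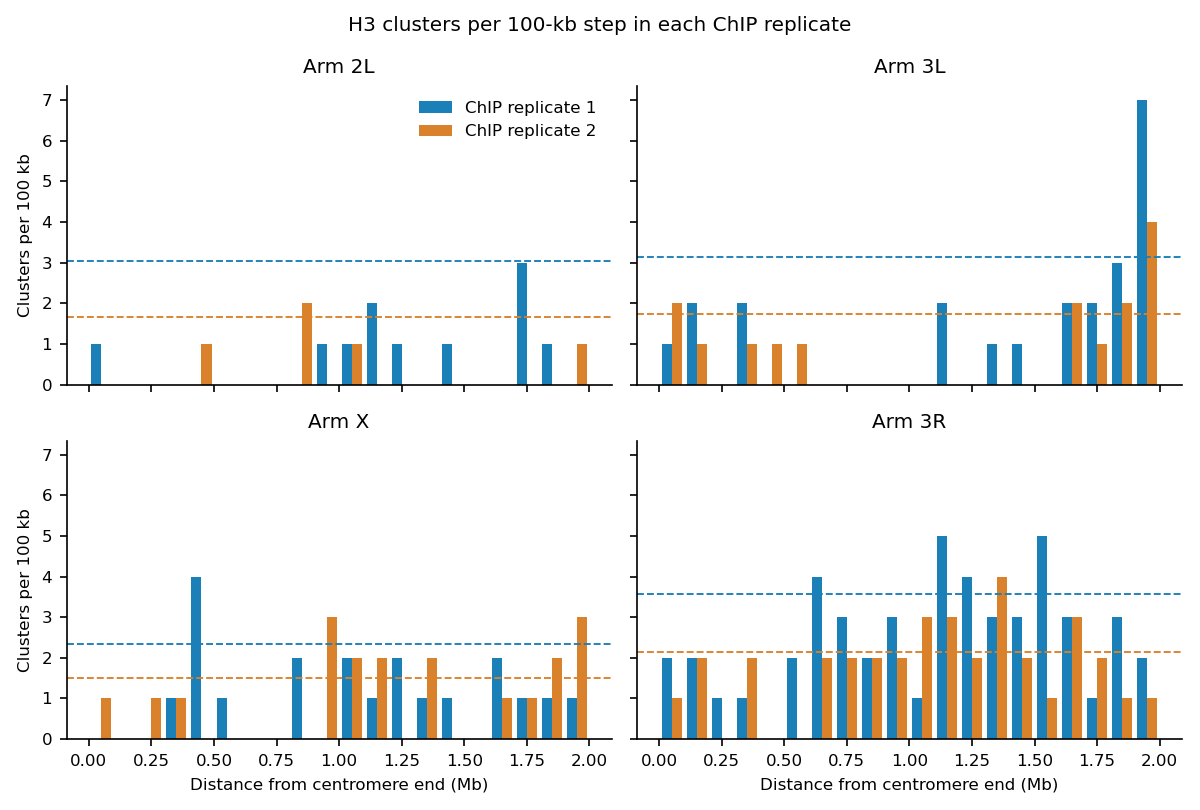
Clusters in each 100-kb step of the last 2 Mb of the 4 arms in ChIP replicate 1 (blue) and ChIP replicate 2 (orange), against distance from the centromere end in Mb. Dashed lines are the means per step on the rest of the arm. 3L shows 7 empty steps in a row in replicate 1 and 10 in replicate 2, and 3R is filled in 19 of 20 steps in replicate 1 and in 17 of 20 in replicate 2.

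Counts in the inner 1 Mb were below those in the outer 1 Mb on all 4 arms in the series-wide list, and the test passed on 3L and X. On 3L the inner 1 Mb held 29 clusters against 80 in the outer 1 Mb, a ratio of 0.362 (0.228 to 0.561; exact binomial test, adjusted p = 1.30e-05). X held 48 against 98, a ratio of 0.490 (0.339 to 0.699; exact binomial test, adjusted p = 2.56e-04). 2L held 44 against 56, a ratio of 0.786 (0.517 to 1.19; exact binomial test, adjusted p = 0.362). 3R held 113 against 147, a ratio of 0.769 (0.596 to 0.989; exact binomial test, adjusted p = 0.121). Between arms the inner to outer ratio of 3R exceeded that of 3L 2.12-fold (Fisher's exact test, adjusted p = 0.0421), and no other pair passed in the series-wide list. In the replicates 3R over 3L did not pass. It was 2.40-fold in replicate 1 (Fisher's exact test, adjusted p = 0.603) and 0.886-fold in replicate 2, the opposite direction.

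Replicate 1 had the lower count in the inner 1 Mb on every arm, with 2 against 9 clusters on 2L, 5 against 18 on 3L, 8 against 12 on X and 20 against 30 on 3R. In that list 3L passed the exact binomial test (ratio 0.278, adjusted p = 0.0425) and the others did not. Replicate 2 had 3 against 2 on 2L, 6 against 9 on 3L, 6 against 13 on X and 13 against 22 on 3R, and none passed. The mean ratios were 0.861 ± 0.904 on 2L, 0.472 ± 0.275 on 3L, 0.564 ± 0.145 on X and 0.629 ± 0.0536 on 3R (SD, n = 2 each). On 2L the replicates lay on opposite sides of 1, at 0.222 and 1.50, so no gradient inside its last 2 Mb was detectable.

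Across the 20 steps of an arm, the rank correlation of distance with series-wide count was 0.258 on 2L, 0.380 on 3L, 0.651 on X and 0.498 on 3R. It was positive on each arm in both replicates, at most 0.403 in replicate 1 (3L) and at most 0.359 in replicate 2 (X). Neighbouring steps are not independent, so no p is given.

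The distance at which a run of 5 steps first averaged 75% of the rest of the arm differed between arms. In the series-wide list such a run began 1.8 Mb from the end on 2L, 1.6 Mb on 3L, 0.9 Mb on X and 0.5 Mb on 3R. In replicate 1 it began at 2.2, 1.5, 1.7 and 0.5 Mb, and in replicate 2 at 2.0, 1.5, 0.7 and 0.6 Mb, in the same order of arms. 3R was the nearest in all 3 lists and 2L the farthest, and X was the arm on which the lists lay farthest apart. At a level of 50% the series-wide distances were 0.8, 1.4, 0.6 and 0.2 Mb, and at 100% they were 2.0, 1.6, 1.7 and 3.7 Mb. On 3R a run at the full mean thus first began well outside the last 2 Mb in the series-wide list. In the replicates it began inside them, at 1.1 Mb in replicate 1 and 0.6 Mb in replicate 2. A single series-wide step of 3R first reached that mean at step 10.

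The ends near the centromere were also less dense than the 2 Mb at the other end of the same arm, next to the telomere. In the series-wide list the ratio was 0.258 on 2L, 0.299 on 3L, 0.461 on X and 0.645 on 3R, and all 4 passed the exact binomial test (adjusted p at most 4.65e-08). The replicate means were 0.107 ± 0.0103, 0.267 ± 0.0157, 0.268 ± 0.0685 and 0.562 ± 0.0172 in the same order (SD, n = 2 each). In each replicate all 4 arms passed as well (exact binomial test, adjusted p at most 7.63e-04 in replicate 1 and 0.0103 in replicate 2).

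The assembly holds further heterochromatic sequence of each arm as a separate piece assigned to that arm. The inner 1 Mb of 3R held 113.0 series-wide clusters per Mb against 48.5 per Mb in the placed heterochromatin of 3R, a ratio of 2.33 (1.79 to 3.04; exact binomial test, adjusted p = 3.03e-09). The replicates gave 2.80 (exact binomial test, adjusted p = 0.00729) and 4.68 (adjusted p = 0.00438) for 3R. The inner 1 Mb of 3L held 29.0 per Mb against 31.7 per Mb, a ratio of 0.915 (0.577 to 1.41; exact binomial test, adjusted p = 1.00). The replicates gave 1.28 and 1.70 for 3L, on the other side of 1, and neither passed the exact binomial test. For 2L the values were 44.0 against 19.0 per Mb (exact binomial test, adjusted p = 0.116) and for X 48.0 against 29.4 per Mb (adjusted p = 0.775), on short pieces of 0.369 and 0.204 Mb. In each replicate these pieces held 0 or 1 clusters, and neither arm passed.

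In the series-wide list clusters stood farther apart near the centromere on all 4 arms. The median distance between neighbouring series-wide clusters was 8.40 kb in the last 2 Mb of 2L against 3.05 kb on the rest of the arm. It was 6.25 kb against 2.77 kb on 3L, 6.27 kb against 3.51 kb on X and 3.56 kb against 2.46 kb on 3R. In replicate 1 the near median was likewise the larger on all 4 arms, between 1.42 times that of the rest on 3R and 3.15 times on 2L. In replicate 2 it was the larger on 2L (259.0 kb against 29.1 kb), 3L (47.4 kb against 36.7 kb) and X (52.5 kb against 38.7 kb), and the smaller on 3R (27.2 kb against 29.6 kb). The longest stretch without a series-wide cluster was 168.9 kb on 3L (23526947-23695891), against 55.5 kb for the longest on the rest of that arm. It was 98.6 kb on 2L (22272753-22371321) against 64.6 kb, 93.1 kb on 3R (364577-457669) against 49.3 kb, and 90.4 kb on X (21682125-21772539) against 102.7 kb. On X alone the longest stretch lay outside the last 2 Mb.

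In the replicates the empty stretches were longer. Replicate 1 held no cluster over 867.2 kb of 2L (22072373-22939582) and over 749.1 kb of 3L (23424419-24173516). Replicate 2 held none over 950.4 kb of 2L (21024631-21975066) and over 1080.9 kb of 3L (22912845-23993697). The 2 stretches on 2L do not overlap, whereas those on 3L overlap and both contain the 168.9-kb stretch that was empty series-wide. On X the longest stretches were 368.9 kb (22053932-22422827) and 571.6 kb (21490819-22062415), and on 3R 240.7 kb (312795-553529) and 348.9 kb (323627-672485), in replicates 1 and 2. The longest stretch on the rest of the arm was shorter than these on 2L (417.6 and 932.4 kb), 3L (216.4 and 350.5 kb) and X (334.6 and 473.0 kb), though by little on 2L in replicate 2. On 3R it was longer than the near one in both replicates, at 257.5 and 394.4 kb. On 3R both contain the series-wide empty stretch at 364577-457669. Of the near replicate clusters 102 of 104 and 74 of 74 overlapped a series-wide one, so few could lie in a series-wide empty stretch. Elsewhere on the 4 arms the shares were 97.8% and 96.0%.

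The clusters near the centromere were shorter than those of the rest of the arm on 2L and X in the series-wide list, and no such difference passed on 3L or 3R. The median length on 2L was 1247 bp in the last 2 Mb and 1427 bp on the rest of the arm, and 31.0% of near clusters (22.1% to 41.0%) exceeded the median of the rest. On X it was 1286 bp near and 1439 bp elsewhere, with 33.6% above (26.0% to 41.8%). Both passed the exact binomial test of that share against 50% (adjusted p = 0.00147 for 2L and 0.00129 for X). The call of 2L was lost with the upper 50% by score (exact binomial test, adjusted p = 0.551), without clusters shorter than any in the replicates (0.165) and in the last 1 Mb alone (0.0765). The call of X was lost with the upper 50% by score (exact binomial test, adjusted p = 0.0638) and in the last 1 Mb alone (0.969). On 3L the medians were 1583 bp near and 1449 bp elsewhere, with 59.6% above (49.8% to 68.9%; exact binomial test, adjusted p = 0.195). On 3R they were 1451 bp and 1461 bp, with 48.6% above (42.4% to 54.9%; exact binomial test, adjusted p = 0.841).

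No length difference passed in a replicate. On X the medians were 1386.5 bp near against 1514 bp elsewhere in replicate 1 (25.0% above; exact binomial test, adjusted p = 0.195) and 1376 bp against 1490 bp in replicate 2 (21.1% above; adjusted p = 0.115), a mean difference of -120.8 ± 9.55 bp (SD, n = 2). On 2L the mean difference was 6 ± 94.8 bp, on 3L 65.5 ± 131 bp and on 3R -29.75 ± 11 bp. The series-wide list went down to 1001 bp, and both replicates had the same longer minimum, so the replicates hold no clusters as short as the shortest series-wide ones. Clusters below the minimum of the replicates made up 58.0% of near clusters against 39.0% elsewhere on 2L, and 51.4% against 38.3% on X. They made up 33.9% against 38.2% on 3L and 38.1% against 38.0% on 3R.

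The length difference itself varied between arms in Fisher's exact test on the shares above the median of the rest. The share on 3L exceeded that on 2L by 28.6 percentage points (adjusted p = 4.52e-04 in Fisher's exact test) and that on X by 26.1 points (adjusted p = 4.52e-04). The share on 3R exceeded that on 2L by 17.6 points and that on X by 15.1 points (Fisher's exact test, adjusted p = 0.0156 for both). 3L over 3R stood at 11.0 points (Fisher's exact test, adjusted p = 0.173) and X over 2L at 2.56 points (adjusted p = 0.880). In replicate 1 the share on 3L exceeded that on X by 44.6 points (Fisher's exact test, adjusted p = 0.0208), and in replicate 2 by 25.6 points (adjusted p = 0.272). No other pair passed in a replicate, and 3R minus 2L was -10.5 points in replicate 1 (Fisher's exact test, adjusted p = 0.880) and 25.7 points in replicate 2 (adjusted p = 0.559). 3R minus X was 19.0 points in replicate 1 (Fisher's exact test, adjusted p = 0.293) and 24.7 points in replicate 2 (adjusted p = 0.194), and 3L minus 2L was 15.0 and 26.7 points (adjusted p = 0.636 and 0.775).

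Toward the centromere, no arm had the same order of lengths in all 3 lists. The series-wide median in the inner and the outer 1 Mb was 1248 and 1247 bp on 2L, 1298 and 1277 bp on X, 1513 and 1405 bp on 3R and 1321 and 1670 bp on 3L. Across the steps the rank correlation of distance with median length was 0.0586 on 2L, 0.475 on 3L (19 filled steps), -0.0692 on X and -0.120 on 3R. The difference of 3L was not shared by replicate 1, where the medians were 1828 bp in the inner 1 Mb and 1634 bp in the outer, while replicate 2 had 1470 and 1545 bp. On 2L the medians were 1453.5 and 1608 bp in replicate 1 and 1435 and 1359 bp in replicate 2. On X they were 1379 and 1386.5 bp in replicate 1 and 1398 and 1355 bp in replicate 2. On 3R they were 1460.5 and 1496 bp in replicate 1 and 1588 and 1399.5 bp in replicate 2. The replicate medians rest on as few as 2 clusters, and none of these differences was tested. Series-wide clusters of 3000 bp or more numbered 0 of 100 on 2L against 4.63% of those elsewhere on the arm, 7 on 3L (6.42% against 5.66%), 4 on X (2.74% against 4.05%) and 8 on 3R (3.08% against 5.43%).

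**Figure D4:**
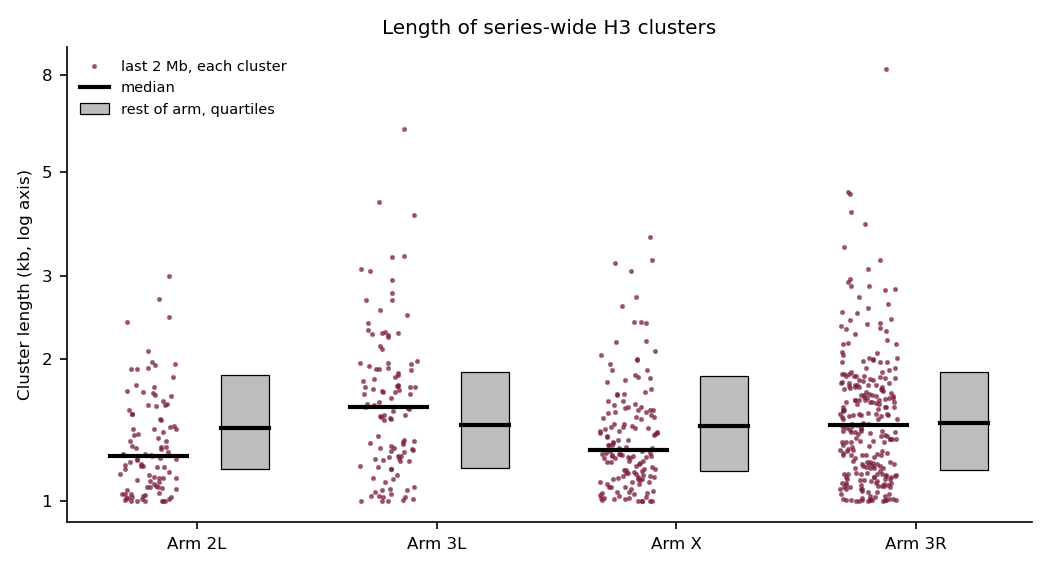
Length in kb, on a log axis, of each series-wide cluster in the last 2 Mb (points, with a bar at the median) beside a grey box with the quartiles and median of the rest of the same arm. The near medians of 2L and X, 1247 and 1286 bp, lie below the medians of 1427 and 1439 bp elsewhere.

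The deposited score, a value of the authors on a log2 scale, differed in its median from the rest of the arm on 3L in the series-wide list. There the median score was 0.43 near and 0.41 elsewhere, and 68.8% of near clusters (59.2% to 77.3%) exceeded the median of the rest (exact binomial test, adjusted p = 0.00129). On 2L the share was 60.0% (exact binomial test, adjusted p = 0.195), on X 47.9% (adjusted p = 0.841) and on 3R 44.8% (adjusted p = 0.283). The difference in medians on 3L was small, 0.02 on the log2 scale, and its call was lost in the last 1 Mb alone (exact binomial test, adjusted p = 0.0765). No score difference passed in a replicate, where the mean differences were 0.04 ± 0.03 on 2L, 0.02 ± 0.03 on 3L, 0.01 ± 0.07 on X and -0.01 ± 0.005 on 3R (SD, n = 2 each).

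Within the last 2 Mb, series-wide scores were weakly higher toward the centromere on 2L and 3L, and the replicates shared this only in part. In the series-wide list the median score of the inner and the outer 1 Mb was 0.45 and 0.40 on 2L, 0.47 and 0.42 on 3L, 0.48 and 0.47 on X and 0.40 and 0.40 on 3R. Over single clusters the rank correlation of distance from the end with score was -0.277 on 2L (100 clusters), -0.385 on 3L (109), -0.0497 on X (146) and 0.0588 on 3R (260). In replicate 1 it was -0.0455 on 2L, 0.0415 on 3L, 0.129 on X and 0.0461 on 3R. In replicate 2 it was 0 on 2L (5 clusters), -0.282 on 3L, 0.00527 on X and -0.00687 on 3R. The median score of 3L in the inner and the outer 1 Mb was 0.56 and 0.53 in replicate 1 and 0.79 and 0.70 in replicate 2, the order of the series-wide list. That of 2L was 0.57 and 0.56 in replicate 1 and 0.68 and 0.75 in replicate 2, on as few as 2 clusters. That of X was 0.56 and 0.60 in replicate 1 and 0.84 and 0.85 in replicate 2, the opposite order to the series-wide list. Clusters of a list share libraries and a caller, so these are descriptions without a test.

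The upper end of the series-wide scores was overrepresented on 2L and 3L. On 2L 16 of 100 near clusters scored above the 95th percentile of the rest of the arm (16.0%, 9.43% to 24.7%; exact binomial test against 5%, adjusted p = 2.22e-04), and on 3L 18 of 109 did (16.5%, 10.1% to 24.8%; adjusted p = 9.53e-05). Without clusters shorter than any in the replicates, the share was 11.9% on 2L and no longer passed (exact binomial test, adjusted p = 0.167), while 3L kept 13.9% (adjusted p = 0.0366). X had 13 of 146 (8.90%; exact binomial test, adjusted p = 0.106) and 3R 6 of 260 (2.31%; adjusted p = 0.106). No arm passed in a replicate.

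Scores above 1 occurred in 11 of the 615 near clusters (1.79%, 0.896% to 3.18%), against 28 of 13672 on the rest of the 4 arms (0.205%, 0.136% to 0.296%). By arm there were 3 on 2L, 3 on 3L, 5 on X and 0 on 3R, and all lay between 127.7 and 1531.9 kb from the end. Of the 11, 6 had the shortest length of the list, 1001 bp, and 1 overlapped a cluster of a replicate. Of the 28 elsewhere, 11 had that length and 2 overlapped a replicate, and the difference in these shares was not tested. Among all near clusters 2.93% had that length and 25.4% overlapped a replicate, and among all elsewhere 2.20% and 27.8%. The near one that did overlap, 3L 24049984-24051018, scored 1.72 and met a replicate 2 cluster at 24050167-24051591 with a score of 3.14. In replicate 1 0 of 104 near clusters scored above 1, against 0.0729% elsewhere. In replicate 2 2 of 74 did (2.70%, 0.329% to 9.42%), and the 1.18% elsewhere lay inside that interval. Besides the 3L cluster this was 2L 22542563-22544109 in replicate 2, which scored 2.02 and overlapped a series-wide cluster with a score of 0.93. All 5 high scores of X lay between 623.3 and 953.7 kb from the end. One of them, 21772540-21774366, bordered the 90.4-kb empty stretch of that arm.

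**Figure D5:**
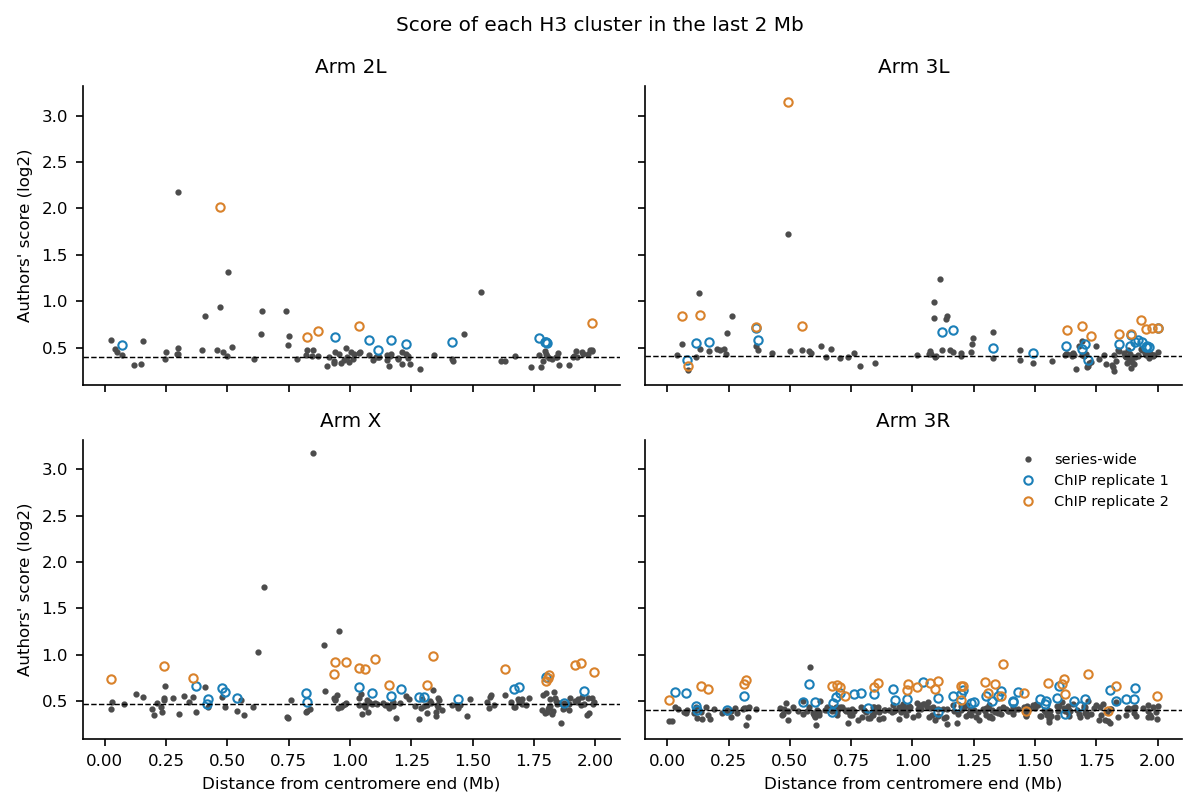
Log2 score of each cluster in the last 2 Mb against distance from the centromere end in Mb, by arm. Dots are series-wide clusters, open circles those of the replicates, and the dashed line is the series-wide median of the rest of the arm. Series-wide dots above 1 number 3 on 2L, 3 on 3L, 5 on X and 0 on 3R.

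Single clusters of each arm are described next, and no difference between arms was tested on them. On 2L the series-wide cluster nearest the end was 22984136-22985170, of 1035 bp and a score of 0.59, with its midpoint 26.9 kb from the end. The 3 longest clusters of the 2L end measured 2997 bp (21224914-21227910, score 0.35), 2677 bp (22021220-22023896, score 0.40) and 2461 bp (21766388-21768848, score 0.33). The 3 highest scores of 2L were 2.17 at 22711644-22712644, 1.32 at 22508006-22509006 and 1.10 at 21479152-21480152, all of 1001 bp. None of these 7 clusters overlapped a cluster of either replicate, while 16.0% of all 100 near clusters of 2L did.

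On 3L the nearest cluster, 24501506-24502506, had the shortest length of 1001 bp, a score of 0.42 and a distance of 41.6 kb. The longest cluster of the 3L end lay close to it, in the first step. It was 24457624-24463778, of 6155 bp with a low score of 0.26, and it spanned a replicate 1 cluster at 24461585-24463523 (score 0.36) and a replicate 2 cluster at 24457908-24459462 (score 0.30). The next longest lay near the outer edge, 22620624-22624934 of 4311 bp (score 0.41) and 22848652-22852686 of 4035 bp (score 0.42), and each overlapped a cluster of replicate 1. The cluster of 4035 bp also overlapped a replicate 2 cluster at 22850687-22852567 (score 0.73). The highest scores after the 1.72 already given were 1.24 at 23431584-23433324, of 1741 bp, and 1.09 at 24415382-24416382. Of all 109 near clusters of 3L, 29.4% overlapped a cluster of either replicate.

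On X the nearest cluster, 22396190-22397770, lay 25.8 kb from the end with 1581 bp and a score of 0.42, and it overlapped replicate 2 at 22396689-22398061 (score 0.74). In replicate 1 the nearest cluster of X was 369.6 kb away. The 3 longest clusters of the X end all lay between 1059.8 and 1204.7 kb, just outside the inner 1 Mb, namely 21319932-21323564 of 3633 bp, 21216536-21219774 of 3239 bp and 21361436-21364632 of 3197 bp. Each overlapped a cluster of 1 replicate. The highest score of all 615 clusters was 3.17 at X 21572292-21573292, followed on X by 1.73 at 21772540-21774366 and 1.25 at 21468636-21469648, and none of the 3 overlapped a replicate cluster. Of all 146 near clusters of X, 25.3% overlapped a cluster of either replicate.

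On 3R the nearest cluster, 7668-9206, lay 8.44 kb from the end, with 1539 bp and a score of 0.29, and replicate 2 held a cluster at almost the same place, 7641-9228 (score 0.52). The longest of all 615 was 3R 698648-706912, of 8265 bp and a score of 0.44, which overlapped both replicates (scores 0.58 and 0.65). It lay in step 8, 702.8 kb from the end and beyond the low first 500 kb. The next longest, 670290-674818 of 4529 bp, lay in step 7 and overlapped 2 clusters of replicate 1 and 1 of replicate 2. The highest score of 3R was 0.87 at 582538-583538, followed by 0.50 at 623044-624060 and 0.50 at 551908-553144, and none of these overlapped a replicate cluster. On 3R the 3 longest clusters each overlapped a replicate cluster, and the 3 highest-scored did not, while 27.3% of all 260 near clusters of the arm did. Those 3 highest-scored measured 1001, 1017 and 1237 bp, shorter than any replicate cluster, and the contrast was not tested.

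Near clusters recurred between replicates at a rate that did not differ detectably from elsewhere. Of 104 near clusters in replicate 1, 16 overlapped a cluster of replicate 2 (15.4%, 9.06% to 23.8%), against 13.6% on the rest of the 4 arms (Fisher's exact test, adjusted p = 1.00). Of 74 in replicate 2, 17 overlapped replicate 1 (23.0%, 14.0% to 34.2%), against 23.0% (Fisher's exact test, adjusted p = 1.00). The shared clusters of replicate 1 were 0 of 11 on 2L, 5 of 23 on 3L, 1 of 20 on X and 10 of 50 on 3R. On the rest of these arms the shares were 14.1%, 13.7%, 13.8% and 13.0%, each inside the 95% interval for the arm's end. The single pair of X was 20622452-20625013 in replicate 1 (score 0.76) and 20623585-20624920 in replicate 2 (score 0.72). One of the 3L pairs, 24181433-24183260 (score 0.71) and 24181865-24183245 (score 0.72), lay in the sparse inner 1 Mb, under the series-wide cluster 24181274-24183816 (score 0.52).

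Of the 615 series-wide clusters, 156 overlapped a cluster of either replicate (25.4%), against 27.8% elsewhere (Fisher's exact test, adjusted p = 0.526), and 17 overlapped both (2.76%), against 3.00% (adjusted p = 1.00). The clusters that overlapped both were 0 of 100 on 2L (0% to 3.62%) and 6 of 109 on 3L (5.50%, against 3.09% elsewhere on the arm). They were 1 of 146 on X (0.685%, against 2.74%) and 10 of 260 on 3R (3.85%, against 2.96%). By the other route, 102 of 104 near clusters of replicate 1 overlapped a series-wide cluster (98.1%), against 97.8% elsewhere. In replicate 2 74 of 74 did, against 96.0% elsewhere (Fisher's exact test, adjusted p = 0.452). The making of the series-wide list from the same replicates can set these shares. On the rest of 2L 3.17% overlapped both, inside the interval for its end, so a lower share for both replicates was not detectable. For overlap with either replicate, 2L had 16 of 100 (16.0%, 9.43% to 24.7%) against 26.9% on the rest of the arm. That 26.9% lay outside the interval (Fisher's exact test, p = 0.0153, not adjusted). On 3L, X and 3R the shares were 29.4%, 25.3% and 27.3%, against 28.0%, 26.4% and 29.0%.

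The windows end at a fixed 2 Mb. The outermost series-wide clusters inside lay 1987.4 kb from the end on 2L, 1999.5 kb on 3L, 1995.4 kb on X and 1999.3 kb on 3R, and the first outside at 2002.5, 2008.1, 2000.6 and 2010.6 kb.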

How the data were processed

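The deposited values were a start, an end and a score for each enriched region (cluster) in 3 lists, namely a series-wide list and the lists of the 2 ChIP replicates. Positions are on FlyBase release 5, per the file headers. The submitters' processing notes list Bowtie 0.12.7. Not given in the sources used here are the caller, its threshold and how the replicates were combined. The score deposited by the authors is on a log2 scale, taken from the values: 99.7%, 99.1% and 100% of scores (series-wide, replicate 1, replicate 2) differ from the list's most frequent score by the log2 of a whole-number ratio (relative tolerance 1e-10, denominators to 1000), against at most 2.05% in other bases. Scores served only to rank, filter and describe clusters within a list.

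Clusters were assigned by midpoint. The rest of an arm is the arm without its last 2 Mb. Densities were compared with exact two-sided binomial tests given the lengths, with Clopper-Pearson 95% intervals, lengths and scores by the share above the rest-of-arm median, and shares between arms or regions with Fisher's exact test. Benjamini-Hochberg adjustment ran over 12 tests for each density comparison and for the upper tail, 18 for each comparison of arm pairs, 24 for length and score together and 8 for overlap. The threshold was 0.05, and overlap was at least 1 bp. Intervals cover counting error only, and they treat clusters as independent, which neighbours need not be. Read depth is unknown, so the number of clusters sets the precision.

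Members and tests were chosen with earlier results of these data known. The comparisons with the next 2 Mb, the other arm end and placed heterochromatin, those of ratios, lengths and overlap between arms or regions, the upper score tail and the distance of the 75% level were added after the data were examined. Single clusters were named by rule: per arm the nearest to the end, the 3 longest and the 3 highest-scored, the longest empty stretch, and each step with 0 clusters. Others named were chosen after their values were seen. Alternatives were the upper 50% by score, the shortest length of the replicate lists as a minimum, merging within 1000 bp, covered bases, clusters wholly inside, the rest without its other end, a 1-Mb region, other step sizes and each replicate alone. The tests were checked on simulated data. Software was scipy 1.17.1 with numpy 2.4.6, matplotlib 3.10.9, pandas 2.3.3 and Python 3.11.15. Sequence and gene annotation of release 5 were not used here.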

Additional observations from a re-analysis of the deposited data

Results flagged for a closer look

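The density of the last 2 Mb relative to the next 2 Mb differed between arms in the series-wide list (Fisher's exact test). The ratio of 3R was 1.80 times that of X, 3.32 times that of 3L and 3.47 times that of 2L, and the ratio of X was 1.84 times that of 3L and 1.93 times that of 2L. The ratio of the inner to the outer 1 Mb on 3R was 2.12 times that on 3L. In the replicates it was 2.40 and 0.886 times that on 3L, and neither passed Fisher's exact test.

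The share of near clusters longer than the median of the rest of the arm also differed between arms in the series-wide list. It was higher by 26.1 percentage points on 3L than on X, by 28.6 points on 3L than on 2L, by 15.1 points on 3R than on X and by 17.6 points on 3R than on 2L (Fisher's exact test). Clusters shorter than any in the replicates occur in the series-wide list alone, and their part in these differences was not tested between arms.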

How the results depend on the processing

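Of 92 alternatives to the main results, 80 were counted as the same, 7 kept direction but no longer passed, 4 turned direction and 1 newly passed. Where a test was made, the same meant the same direction and side of the threshold. Covered bases and other step sizes had no test and were judged by closeness to the main value. The lower series-wide density near the centromere than on the rest of the arm kept its direction on all 4 arms, and its side of the threshold wherever a test was made. With the upper 50% by score, the inner to outer ratio of 2L became 1.22, and the length difference became -195 bp on 2L (exact binomial test, adjusted p = 0.551) and -152 bp on X (adjusted p = 0.0638). With clusters at least as long as the shortest of the replicates, the length difference on 2L was -143 bp (exact binomial test, adjusted p = 0.165) and the share in the upper score tail 11.9% (adjusted p = 0.167). With the last 1 Mb alone, length differences were -179 bp on 2L (exact binomial test, adjusted p = 0.0765), -141 bp on X (adjusted p = 0.969), -128 bp on 3L and 52 bp on 3R, and score differences 0.0606 on 3L (adjusted p = 0.0765) and 0.0106 on X. At the 90th percentile the upper tail of 3R passed as lower, at 4.62% (exact binomial test, adjusted p = 0.0101). For the mean of the replicates, the upper 50% by score gave -130.5 bp on 2L and -33.75 bp on 3L, and the last 1 Mb -49.25 bp on 2L, 25.75 bp on 3R and a score difference of -0.0075 on X. With 1 replicate at a time, the inner to outer ratio on 2L ran from 0.222 to 1.50, length differences from -61 to 73 bp on 2L and from -27 to 158 bp on 3L, and the score difference on X from -0.0317 to 0.0608. The shorter lists hold fewer clusters by construction, and beyond that the cause was not tested. No paired analysis was possible because ChIP and input share replicate numbers but the inputs have no list of their own.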
